A study of Drosophila melanogaster with 8 samples.

Results

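Neprilysins are zinc metallopeptidases that sit on the cell surface or are secreted and cut small peptides, and in mammals they break down enkephalins and tachykinins. The genes examined here were those whose platform symbol begins with Nep or Nepl (neprilysin-like) and a digit, with Ance (homologues of angiotensin-converting enzyme), with Mmp (matrix metalloproteinases) or with AdamTS (secreted proteases of the extracellular matrix). The symbol chose the genes, and among several probe sets of a gene the one with the highest mean over all arrays was taken, so the levels below are descriptive. The families themselves were chosen with earlier results of these data known, so the counts of lower and higher genes per branch are descriptive as well. The rule found 34 of the 11982 genes with a probe set of their own, namely 7 Nep, 19 Nepl and 8 others, which were 5 Ance genes, 1 Mmp gene and 2 AdamTS genes. The 34 genes were covered by 38 probe sets. Mmp1 had no probe set listed under its own name in the annotation and was not analysed here.

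Expression was measured in heads of Canton_S females, a wild-type strain of Drosophila melanogaster. All flies were placed in light boxes within 8 h of emergence and kept for 12 days at 12.5 °C, and the labels name no transgene or drug in either group. The 4 long day samples had 16 h of light and 8 h of dark, the 4 short day samples had 10 h of light and 14 h of dark, and heads were taken at 4 h of the light phase. A shorter short day is given in the methods of the study, and the labels were followed here. Whether the samples came from separate vials is not stated, and the p-values cover only how far these samples scattered, which could reflect technique as well as biology.

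In flies, neprilysins act in neurons, muscle and other tissues. Nep2 has been shown to cut tachykinin-related peptides, Nep1 to Nep4 are needed for memory formation, and Nep4 affects muscle and the expression of insulin-like peptides. The Nepl genes are a larger and mostly little-studied branch of the same family. Nepl15 is predicted to be inactive as an enzyme and is known from its effect on nutrient stores in adult males. Ance is an active peptidase that removes pairs of residues from the ends of peptides, whereas Ance-2, Ance-3, Ance-4 and Ance-5 are predicted to lack residues of the active site. Mmp2 and the AdamTS proteins cut or loosen extracellular matrix.

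Values are log2 expression per probe set, on a scale from a lowest value of 2.15 to a highest of 15.52. A gene is called measured here when its mean over the 8 arrays was 4 or more, and called differentially expressed at an unadjusted limma p under 0.01, the threshold of the study. The arrays were alike, with medians between 8.44 and 8.52 over the measured probe sets (those averaging at least 4) and pairwise correlations across them between 0.983 and 0.996. The labelled tissue was borne out by its markers, with all 10 neuronal and all 5 photoreceptor markers on the array measured, while none of 11 markers of testis and male accessory gland and none of 7 of ovary and eggshell reached a mean of 4. Of 7 Malpighian tubule markers 3 reached that mean, and of 6 gut markers 1 did. The sample of short day replicate 3 carried flight muscle transcripts, with a mean of 12.84 over the 3 measured flight muscle markers against 10.05 to 10.89 in the other 7 samples. Muscle markers were higher and most fat body markers lower in short days, and both are given beside the results below.

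Of the 34 genes, 29 were measured, and the other 5 (Nep5, Nepl7, Nepl8, Nepl17 and Ance-2) sat at the lowest value on all 8 arrays. The measured genes spanned values from 4.30 to 10.60, so none of their calls rested on the floor of the scale. In short day heads 2 of the 34 genes fell, Nepl6 and Nepl15, and none rose, a share of 5.88% where 3.48% of all 11982 genes were called in either direction and 1.69% downwards. None of the 34 passed Benjamini-Hochberg adjustment at 0.05 in limma, and at an unadjusted p under 0.05 there were 9 lower and 3 higher genes of the 34, where 5.07% of all genes were lower and 6.04% higher at that level. Only 7348 of the 11982 genes had a mean of 4 or more, a smaller part than of the 34. The shares over all genes are therefore a low reference, and those among measured genes alone are not given for these calls. The branches are described apart. The median log2 difference, short day minus long day, was -0.28 over all 19 Nepl genes, 0.04 over the 7 Nep genes and 0.14 over the 8 others, against a median of 0.00 over all genes and 0.02 over the 7348 genes of mean 4 or more. No test of the difference between branches was made.

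**Figure D1:**
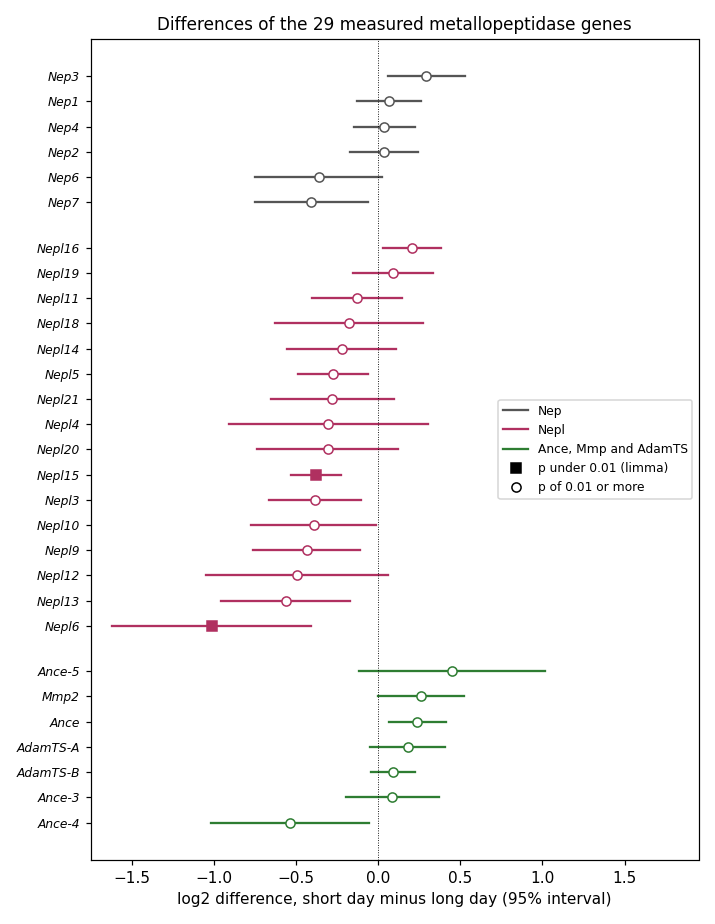
Log2 difference between short day and long day heads (horizontal axis) for each of the 29 measured genes, grouped by branch. Points are the limma estimates from 4 samples per group, bars are 95% intervals, and filled squares are genes with an unadjusted p under 0.01. Only Nepl6 and Nepl15 are filled, and 14 of the 16 measured Nepl genes lie below 0.

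Among the Nepl genes the values were lower in short days throughout most of the branch. Of the 16 measured, 14 had a lower mean in short days and 2, Nepl16 and Nepl19, a higher one, while 43.8% of all genes of mean 4 or more had a lower short day mean. In 7 of the 19 Nepl genes, or 36.8%, the 4 short day values all lay below the 4 long day values, and in 1 they all lay above. Over all genes such a separation was seen downwards in 3.47% and upwards in 3.87%, and downwards in 5.48% of the genes of mean 4 or more. The 7 were Nepl6, Nepl13, Nepl12, Nepl9, Nepl3, Nepl15 and Nepl21. When each array was left out in turn the number was between 7 and 9, and the share over all genes, higher with 7 arrays than with 8, between 4.26% and 5.82%. Separated groups stay separated when an array is removed, so the number could not fall below 7 and its steadiness shows nothing. The median over the 19 genes was then between -0.21, without short day replicate 2, and -0.34, without short day replicate 4.

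Nepl6 showed the largest difference of all 34 genes. It measured 7.14, 7.14, 6.80 and 6.20 in long day replicates 1 to 4 and 6.01, 5.42, 5.87 and 5.93 in short day replicates 1 to 4. The groups were separated by a narrow gap between long day replicate 4 and short day replicate 1. Nepl6 fell from 6.82 ± 0.44 to 5.81 ± 0.27 in log2 expression (mean ± SD of 4 samples), to 0.495 of the long day level, with a log2 difference of -1.01 (SE 0.25, 95% interval -1.62 to -0.41, limma adjusted p = 0.311). Its call did not hold with most single arrays left out. The unadjusted limma p lay between 0.0111 and 0.0177 when long day replicate 1, 2 or 3 or any short day replicate was left out, and was 0.000762 without long day replicate 4. Its adjusted limma p was 0.0634 in a fit restricted to measured probe sets and 0.0466 with a filter at a mean of 6. Over all alternatives it reached up to 0.893.

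Nepl15 was the member with the smallest p. It measured 9.76, 9.87, 9.75 and 9.75 in the long day samples and 9.47, 9.23, 9.44 and 9.46 in the short day samples. Within each group 3 samples lay within 0.03 of each other, and the short day sample that stood apart, replicate 2, was the lowest of all 8. Nepl15 fell from 9.78 ± 0.06 to 9.40 ± 0.12, to 0.768 of the long day level (log2 difference -0.38, SE 0.06, limma adjusted p = 0.172). Leaving out any 1 array kept the call, with differences between -0.32 and -0.40 and an unadjusted limma p between 0.000143 and 0.00263. Its adjusted limma p was 0.0467 in a fit restricted to measured probe sets, and between 0.0351 and 0.831 over all alternatives.

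The other 5 genes with separated lower values did not pass the threshold. Nepl13 measured 7.07, 7.33, 7.32 and 7.10 in long days and 6.67, 6.20, 6.82 and 6.87 in short days. Its log2 difference was -0.56 (95% interval -0.96 to -0.17), with an adjusted limma p of 0.389. All 4 short day samples of Nepl13 were lower than any long day sample, and replicate 2 was the lowest. Without that sample the difference was -0.42, with an unadjusted limma p of 0.00578.

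Nepl9 measured 6.72, 6.77, 6.67 and 6.90 in long days and 6.34, 5.97, 6.44 and 6.58 in short days. Nepl3 measured 4.98, 5.09, 5.22 and 5.45 in long days and 4.68, 4.71, 4.90 and 4.92 in short days. Both sets of values were separated by less than 0.1, between long day replicate 3 and short day replicate 4 for Nepl9 and between long day replicate 1 and short day replicate 4 for Nepl3. The log2 differences were -0.43 for Nepl9 and -0.39 for Nepl3, with unadjusted limma p of 0.0166 and 0.0144. The p of Nepl9 was 0.00900 without short day replicate 2 and 0.00854 without replicate 4, and that of Nepl3 was 0.00795 in limma without long day replicate 1.

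Nepl12 and Nepl21 rested more on a single sample. Nepl12 measured 6.86, 6.63, 6.62 and 6.71 in long days and 6.36, 5.54, 6.58 and 6.36 in short days, and Nepl21 measured 9.74, 9.74, 9.68 and 9.70 in long days and 9.64, 8.97, 9.50 and 9.64 in short days. In both, short day replicate 2 lay far below the other short day samples, the highest of which came close to the long day range. The log2 differences were -0.49 for Nepl12 (95% interval -1.05 to 0.06) and -0.28 for Nepl21 (95% interval -0.65 to 0.10). Without short day replicate 2 they were -0.27 and -0.12.

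**Figure D2:**
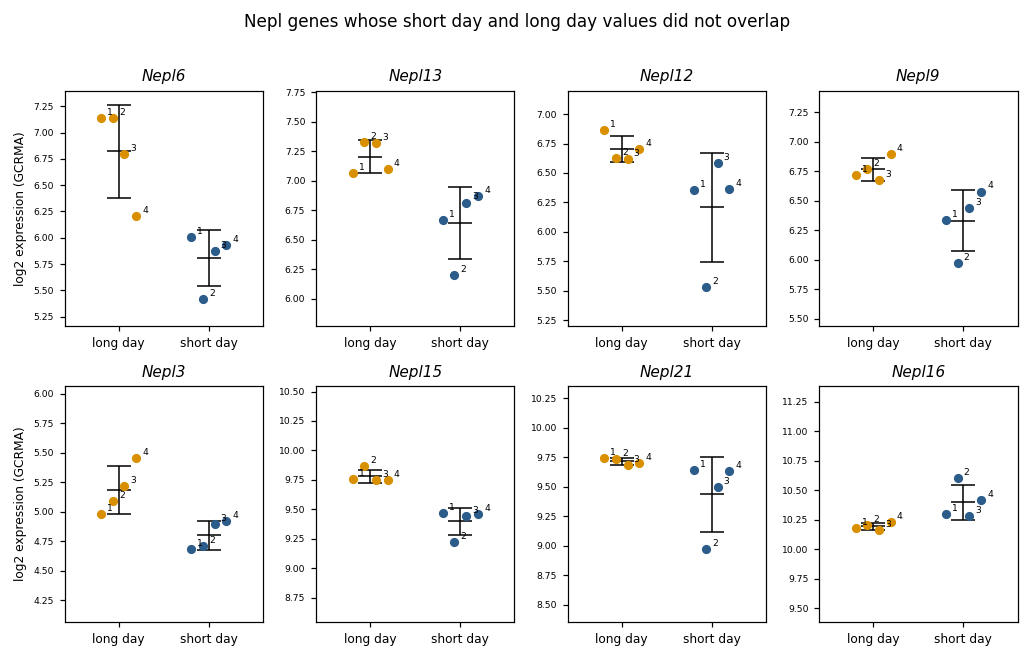
Log2 expression (vertical axis, GCRMA) of the 8 Nepl genes whose short day and long day values did not overlap, with 1 numbered point per sample and the mean ± SD of 4 samples in black. The vertical axes differ in level and, for Nepl6, slightly in span. Values are lower in short days in all but Nepl16, and short day replicate 2 is the lowest point in 6 of the 7 lower genes.

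Nepl16 was the exception among the separated genes. It measured 10.18, 10.20, 10.17 and 10.23 in long days and 10.30, 10.60, 10.28 and 10.41 in short days. All short day values of Nepl16 were above all long day values, and here replicate 2 was the highest sample. The log2 difference was 0.21 (95% interval 0.03 to 0.38) and did not pass the threshold, with an unadjusted limma p of 0.0286.

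The remaining 8 measured Nepl genes overlapped between the groups, and none was called. Nepl5 and Nepl10 reached an unadjusted limma p of 0.0191 and 0.0457, with log2 differences of -0.27 and -0.39, and Nepl5 one of 0.00355 without short day replicate 1. Nepl4 varied most within a group, from 8.22 to 9.30 among the long day samples, which left an interval of -0.91 to 0.30 around its difference of -0.30. Nepl11, Nepl14, Nepl18 and Nepl20 had differences between -0.31 and -0.13, and Nepl19 one of 0.09 (95% interval -0.15 to 0.34). For Nepl11 a second probe set gave a log2 difference of -0.20, in the same direction as the -0.13 of the first.

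Several Nepl genes are neighbours in the genome, with no other protein-coding gene between them in RefSeq Release 6, and neighbours did not all behave alike. In the run of Nepl13, Nepl14 and Nepl15 all 3 had lower short day means, with log2 differences of -0.56, -0.22 and -0.38. Of the adjacent pair Nepl5 and Nepl6 both were lower, by very different amounts (-0.27 and -1.01). In the run from Nepl17 to Nepl21, the first sat at the lowest value on all arrays, Nepl18, Nepl20 and Nepl21 had lower short day means and Nepl19 a higher one. Probe sets of related neighbouring genes may share some signal, which was not examined.

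The sample of short day replicate 2 was the lowest of all 8 samples in 12 of the 16 measured Nepl genes, against 13.1% of all genes of mean 4 or more. With each gene set to its own mean over the 8 arrays, the average over the 16 genes was 0.16, 0.20, 0.17 and 0.10 in the long day samples and -0.09, -0.40, -0.12 and -0.02 in the short day samples. The groups did not overlap on this average, and replicate 2 was lowest by a wide margin while replicate 4 lay closest to the long day samples. Without short day replicate 2, 3 Nepl genes were called (Nepl9, Nepl13 and Nepl15), and without long day replicate 2, long day replicate 3 or short day replicate 3, 1 was called.

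**Figure D3:**
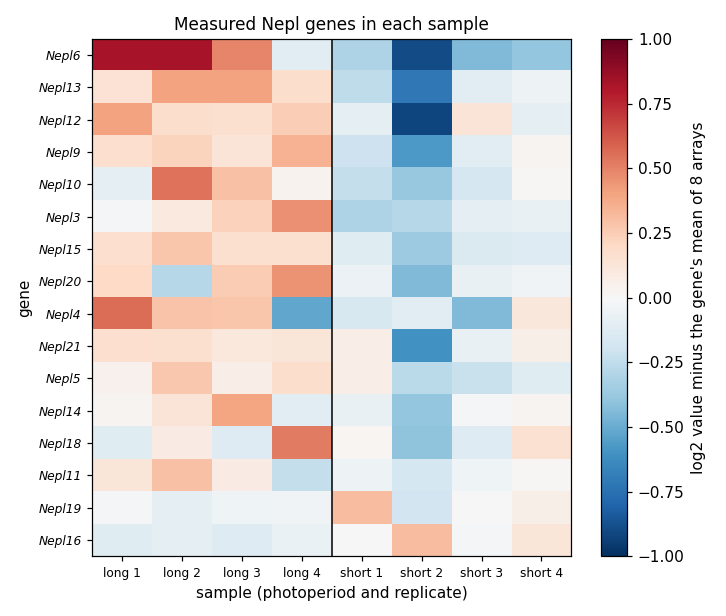
Log2 value of each measured Nepl gene (rows, ordered by their short day minus long day difference) in each sample (columns), relative to the gene's mean of 8 arrays (colour, blue for lower and red for higher). The 4 long day columns are mostly red and the short day columns mostly blue, most deeply in short day replicate 2. The bottom row, Nepl16, runs the other way, and Nepl19 above it is mixed, highest in short day replicate 1 and lowest in short day replicate 2.

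Most fat body markers were also lower in the short day samples. Of 9 on the array 6 fell and none rose, also with any 1 array left out, where 1.69% of all genes were called downwards. The median log2 difference of the 9 was -0.57. Not called were apolpp (-0.06), FASN1 (0.04) and Fbp1. The 6 that fell were Yp1, Yp2, Yp3, Lsp2, AkhR and Lsd-1, which include yolk protein and lipid droplet genes already known to fall in these data. None of the 9 sat at the lowest value of the scale on all arrays, but Fbp1 shared a value of 2.22 on 7 arrays and was at 6.26 in short day replicate 3. Over the 8 measured markers the mean level lay between 14.07 and 14.10 in long days and between 13.36 and 13.74 in short days. Relative to their own means these 8 averaged -0.26, -0.48, -0.14 and -0.10 in short day replicates 1 to 4. Short day replicate 2 was thus lowest and replicate 4 highest of the short day samples in both sets. This was not particular to fat body. Short day replicate 2 had the highest mean of all 8 samples for muscle (12.48), neuron (10.47) and photoreceptor (14.17) markers. It did not for glia or haemocyte markers. For muscle markers replicate 4 was the lowest of the short day samples (12.15). The part of the fat body in the Nepl values was not tested. In whole heads, fewer cells of a type and less RNA per cell cannot be told apart. Of 8 haemocyte markers none was called (1 rose without long day replicate 1), with a median log2 difference of 0.24. Of 6 muscle markers 4 rose (2 without long day replicate 2 or 4 or short day replicate 1 or 2), where 1.79% of all genes were called upwards. The mean levels of the muscle markers were 11.68 to 11.99 in long days and 12.15 to 12.48 in short days.

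**Figure D4:**
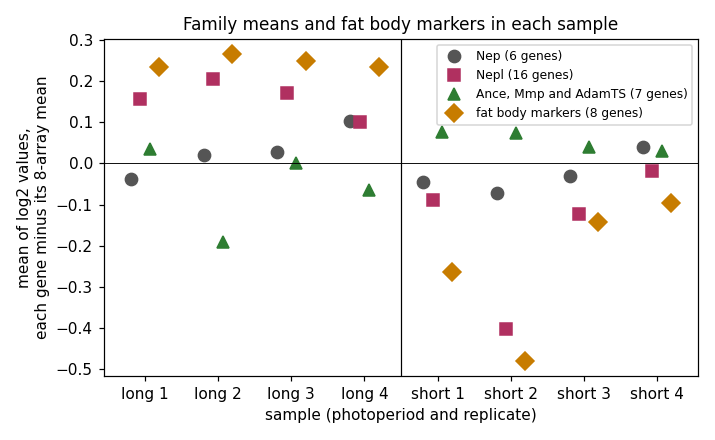
Mean over the measured genes of each branch, and over 8 fat body markers, of the log2 value relative to each gene's mean of 8 arrays (vertical axis) in each sample (horizontal axis). Nepl and fat body means are above 0 in all 4 long day samples and below 0 in all 4 short day samples, both lowest in short day replicate 2. The Nep means and those of the other genes stay within 0.2 of 0. So do most Nepl means, which reach -0.40 in short day replicate 2.

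The Nep genes, which include those with known roles in the nervous system, showed no called difference, and at an unadjusted limma p under 0.05 there were 1 lower (Nep7) and 1 higher (Nep3). Of the 6 measured, 4 had a higher and 2 a lower short day mean. Nep2 and Nep4 had log2 differences of 0.04 each, with 95% intervals of -0.17 to 0.24 and -0.15 to 0.22, and Nep1 one of 0.07 (-0.13 to 0.26). For these 3 genes the data thus leave room for a difference of up to about 0.26 in log2, and the direction of Nep2 turned when long day replicate 1 or 3 was left out, as did that of Nep4 without short day replicate 2.

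Nep3 was the Nep gene with the largest positive difference. It measured 7.86, 8.00, 7.82 and 8.15 in long days and 8.28, 8.32, 8.05 and 8.36 in short days. Long day replicate 4 was above short day replicate 3, so the groups overlapped in that pair alone. The log2 difference was 0.29 (95% interval 0.06 to 0.53), the short day level 1.23 times that in long days, and the adjusted limma p 0.446. Without short day replicate 3, the sample with flight muscle transcripts, the unadjusted limma p was 0.00728, and without long day replicate 4 it was 0.00921.

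Nep6 and Nep7 lay on the lower side. Nep7 measured 7.01, 7.17, 7.46 and 7.16 in long days and 6.57, 6.63, 7.00 and 6.96 in short days. Nep6 measured 8.31, 8.29, 8.58 and 8.41 in long days and 8.20, 7.60, 8.27 and 8.09 in short days. Neither overlapped between the groups, but long day replicate 1 and short day replicate 3 of Nep7 almost touched, as did long day replicate 2 and short day replicate 3 of Nep6. These 2 were 28.6% of the 7 Nep genes, where 3.47% of all genes and 5.48% of those of mean 4 or more were separated downwards. The log2 differences were -0.41 for Nep7 and -0.36 for Nep6, with unadjusted limma p of 0.0272 and 0.0629. Without short day replicate 2, the lowest sample of Nep6, the difference of Nep6 was -0.21.

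**Figure D5:**
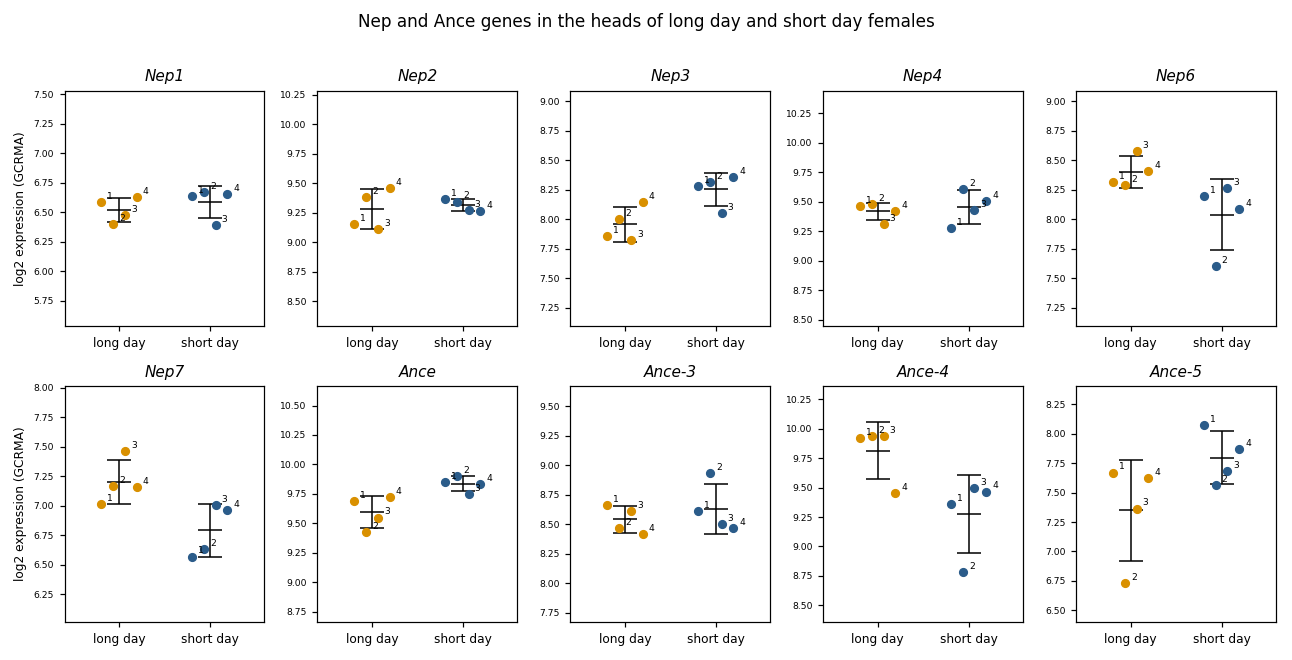
Log2 expression (vertical axis, GCRMA) of the 6 measured Nep genes and the 4 measured Ance genes in each long day and short day sample, with numbered points for samples and the mean ± SD of 4 samples in black. The vertical axes differ in level. Nep6, Nep7 and Ance do not overlap between the groups, by small margins.

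Ance, the active angiotensin-converting enzyme homologue, measured 9.69, 9.43, 9.55 and 9.72 in long days and 9.85, 9.90, 9.75 and 9.84 in short days. All short day values lay above the long day values, the nearest pair being long day replicate 4 and short day replicate 3. The mean went from 9.60 ± 0.13 to 9.84 ± 0.06, a log2 difference of 0.24 (95% interval 0.06 to 0.41) with an unadjusted limma p of 0.0149, just short of the threshold. Without long day replicate 4 the p was 0.00935.

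Ance-4 ran the other way. It measured 9.92, 9.94, 9.94 and 9.46 in long days and 9.36, 8.78, 9.50 and 9.47 in short days. Long day replicate 4 stood apart from its group and fell within the short day range, and short day replicate 2 was again the lowest sample. The log2 difference was -0.54 (95% interval -1.02 to -0.06) with an unadjusted limma p of 0.0338. Ance-5 and Ance-3, further homologues without a complete active site, had differences of 0.45 (-0.12 to 1.01) and 0.09 (-0.20 to 0.37). A second probe set of Ance-3 gave -0.03, and the first gave -0.01 without short day replicate 2, so no direction can be given for it.

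The matrix proteases were not called. Mmp2, which remodels basement membranes, had a log2 difference of 0.26 (95% interval 0.00 to 0.52) and an unadjusted limma p of 0.0510. Its lowest value, 7.17, was in long day replicate 2 and its highest, 7.86, in short day replicate 2. AdamTS-A, which helps migrating cells detach from matrix, had a difference of 0.18 (-0.05 to 0.41). AdamTS-B measured the identical value of 6.45 on 5 of the 8 arrays, and 6.48 in long day replicate 1, 6.62 in short day replicate 1 and 6.67 in short day replicate 2, so that little of its variation was recorded. The second probe sets of Mmp2 and AdamTS-A sat at or within 0.01 of the lowest value on all arrays and carried no information.

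Genes that act with these enzymes were described by lists. Of the MMP inhibitors, Reck, a membrane-anchored inhibitor of matrix metalloproteinases in mammals, measured 8.79, 8.71, 8.44 and 8.56 in long days and 9.02, 9.04, 9.08 and 9.20 in short days. The groups were clearly apart, and Reck rose 1.38-fold (log2 difference 0.46, SE 0.09, limma adjusted p = 0.203), a call kept with any 1 array left out. Timp, the secreted inhibitor, had a difference of 0.22 with overlapping groups (limma adjusted p = 0.817), and without long day replicate 4 both inhibitors were called. Of 16 basement membrane and matrix proteins none was called (2 rose without long day replicate 1, 1 rose without short day replicate 3 and 1 fell without short day replicate 2), and their median log2 difference was 0.22. The smallest p values there were those of Glt (glutactin, -0.34), LanB1 and LanA (laminin chains, 0.25 and 0.46) and dlp (a glypican, 0.27).

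Among 13 other cell surface and secreted metallopeptidases outside the naming rule, 10 were measured, 1 fell and none rose. Over all genes 1.69% were called downwards and 1.79% upwards. The median log2 difference over the 13 was 0.06. The gene that fell was Acer, a second active homologue of angiotensin-converting enzyme, which is known for a role in night-time sleep. Acer measured 11.82, 11.90, 11.70 and 11.55 in long days and 11.23, 10.89, 11.39 and 11.31 in short days. The groups did not overlap, and short day replicate 2 was the lowest sample. Acer fell to 0.690 of the long day level (log2 difference -0.53, SE 0.13, limma adjusted p = 0.307), while the related Ance had a difference of 0.24. The call of Acer was lost without long day replicate 1, 2 or 3 or short day replicate 1 or 4, with an unadjusted limma p between 0.0106 and 0.0176. The next smallest p values belonged to stl, an AdamTS relative (0.34), tld (tolloid, 0.06) and Meltrin (0.14), which were not called. The mean of tld was 2.47, near the lowest value of the scale.

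Neuropeptides and peptide hormones are the kind of substrate that neprilysins and angiotensin-converting enzymes cut. Of 37 precursor genes on the array 2 rose and none fell, where 1.79% of all genes were called upwards, and the median log2 difference was 0.12. All 10 measured neuron markers also had a higher short day mean, with a median log2 difference of 0.18 and mean levels of 10.00 to 10.28 in long days and 10.19 to 10.47 in short days. Of them 1 rose, Snap25 (a synaptic vesicle fusion protein, log2 difference 0.26, limma adjusted p = 0.294), and no neuron marker was called without long day replicate 1, 2 or 3 or short day replicate 1, 2 or 4. None of the 10 sat at the lowest value on all arrays, and the part of neuronal RNA in the neuropeptide values was not tested. FMRFa rose 1.35-fold and Dh31, a diuretic hormone, 1.21-fold (limma adjusted p = 0.307 and 0.321). Neither was called without long day replicate 2, 3 or 4 or short day replicate 2 or 3, where the unadjusted limma p lay between 0.0115 and 0.0221. The call was also lost for FMRFa without short day replicate 4 and for Dh31 without short day replicate 1. No gene of the list was called without long day replicate 2 or 3 or short day replicate 3, and 1 rose and 2 fell without short day replicate 2. Proc (proctolin) and Ms (myosuppressin) had differences of 0.51 and 0.28 and did not pass. Tk, encoding the tachykinins that Nep2 cuts, had no probe set of its own listed and was not analysed here.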

How the data were processed

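Total RNA from female heads was labelled as biotin-cRNA and hybridised to Affymetrix Drosophila Genome 2.0 arrays, 4 per photoperiod. The values the authors deposited are on a log2 scale, 1 per probe set and array, and the submitters' processing notes name GCRMA (version not given in the sources used here), which corrects background by probe sequence and applies quantile normalization, so a change in total mRNA would not be visible. The number of arrays limits the precision. Of 18952 probe sets, 183 controls were set aside. Names came from the platform annotation, and all 34 member symbols matched RefSeq by Entrez number. Probe sets of several genes (402) or with no gene listed (4720) name no gene here. Those of Nep1, Nep4 and Ance have the suffix that marks probes shared between transcripts. No scan dates were used, so no batch could be tested.

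Short day minus long day was fitted over all 18769 probe sets with limma 3.58.1 in R 4.3.3 (lmFit, eBayes, two-sided, no block), with Benjamini-Hochberg adjustment over all of them. In 5 simulated data sets of 18769 probe sets, shifts of 0.5 and 1 in log2 were put on 200 probe sets of mean 6 or more. They were recovered at an unadjusted limma p under 0.01 in 81.8% and 98.4% of cases. Noise was drawn separately for each probe set and array. Deviations shared by many genes in 1 sample, smaller shifts and probe sets of lower mean were not simulated. Every member of mean 4 or more, or called, was named with its values, and of each list every called gene and up to 4 with the smallest p. The members and lists were chosen with earlier results of these data known. The processing was varied by filters at a mean of 4 and 6, a replicate block, a second quantile normalization, median centring, a trend and robust variance model, array weights, a floor of 3, arrays left out and averaged probe sets. Same-numbered samples did not deviate together (correlations of their deviations between -0.23 and 0.17), so the numbers do not pair them.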

Additional observations from a re-analysis of the deposited data

Results flagged for a closer look

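In 6 of 58 sets of 4 samples, 1 sample lay far from the other 3 by Dixon's test, which chance alone gives in about 1 of 20. Nepl15 in short day replicate 2 was at 9.23, with the other short day samples between 9.44 and 9.47, and in long day replicate 2 at 9.87, with the others between 9.75 and 9.76. Nepl20 in short day replicate 2 was at 8.42, with the others between 8.79 and 8.83. Ance-4 in long day replicate 4 was at 9.46, with the others between 9.92 and 9.94. Nep1 in short day replicate 3, the sample with flight muscle transcripts, was at 6.39, with the others between 6.64 and 6.67. AdamTS-B in long day replicate 1 was at 6.48, with the others at an identical 6.45.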

How the results depend on the processing

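Of 520 refits of the 29 named genes, 482 kept direction and side of the threshold, 10 lost a call, 24 gained one and 4 turned in direction. Those 4 arose with single arrays left out and were near 0: Nep2, between -0.019 and 0.10, turned without long day replicate 1 (-0.01) or 3, Nep4, between -0.014 and 0.10, and Ance-3, between -0.014 and 0.14, turned without short day replicate 2. The number of Nepl genes called, 2, became 5 and 4 with filters at a mean of 4 and 6, 4 after median centring, 4 with array weights, 1 with a replicate block (Nepl3, while Nepl6 and Nepl15 were not called, with unadjusted limma p of 0.0308 and 0.0146), 1 in a fit lacking short day replicate 3 together with long day replicate 2, and 1 to 3 with single arrays left out. The number of Nep genes called, 0, became 2 with a replicate block (Nep3 and Nep7), 1 with the filter at 6, 1 with array weights and 0 to 1 with single arrays left out. That of Ance, Mmp and AdamTS genes, 0, became 1 with the filter at 6, 1 with array weights and 0 to 1 with single arrays left out. Over all probe sets 518 became 640 and 616 with filters at a mean of 4 and 6, 716 after median centring, 691 with array weights, 300 with the replicate block, 180 with the trend and robust model and 345 to 568 with single arrays left out. The count of Nepl genes lower with no overlap, added after the values were seen, was between 7 and 9 with single arrays left out, and that of Nep genes 2. Leaving out an array cannot lower these counts, so they are no check on the separation. Nepl3 and Nepl10, of mean under 6, had no value in the filter at 6. Of 72 refits of the called genes FMRFa, Dh31, Reck and Acer, added after the values were seen, 28 lost the call and none turned, and Reck lost it only with the replicate block (unadjusted limma p of 0.0150). The cause of these changes was not tested.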
